A study of Mus musculus with 6 samples.

Results

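The transcripts of chromatin regulator families were examined among the RNAs crosslinked to BAZ2A in mouse embryonic stem cells (ESCs). Members were the protein-coding genes of the GENCODE M21 annotation whose symbol starts with a stem out of 17 (Kdm, Kmt, Setd, Smarc, Chd, Hdac, Dnmt, Tet, Baz, Brd, Arid, Ash, Nsd, Prmt, Kat, Sin3 and Ncor) followed directly by a digit or a capital letter. This rule took 108 of 21951 protein-coding genes, from 15 of the stems. No Smarc or Sin3 gene meets it, because their next letter is lower case, and these 15 genes are described separately. The membership rests on the symbol alone, so it also took Brd3os, a gene on the other strand beside Brd3 that is not a bromodomain gene. The cells were E14 ESCs kept in N2B27 medium with LIF/2i, in which the endogenous BAZ2A carries Flag and HA tags. Nuclear lysates were precipitated with anti-FLAG, from cells crosslinked with UV-C (3 libraries) and from cells of the same genotype that were not crosslinked (3 background libraries). iCLIP sequences the RNA that stays linked to the precipitated protein, and the sites called against the background form a single list of 3127 peaks with a score each. Per the paper's methods, a gel showed no amplification product for the background samples. They were pooled at equal volume with the crosslinked ones for sequencing. How far this background corrects for RNA abundance was not tested. The list holds no value per library, so nothing below has a replicate check, and the intervals given for shares and medians cover the counting of genes and peaks only.

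BAZ2A (also known as TIP5) is the large subunit of the remodelling complex NoRC, in which it works with the ATPase SNF2H, encoded by Smarca5. The members encode the enzymes and readers of chromatin marks. Writers add methyl or acetyl groups to histones, erasers remove them, bromodomain and other reader proteins bind the marked histones, and remodellers use ATP to move or exchange nucleosomes. DNA methyltransferases and TET dioxygenases do the corresponding work on cytosine, and corepressors such as NCOR1 hold deacetylases on repressed genes. Many of these proteins are large and are encoded by long transcripts. All peak data below concern the RNA of these genes, not the proteins.

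At least 1 peak was found in 35 of the 108 members, or 32.4% (Wilson 95% interval 24.3 to 41.7%), whereas 2093 of 21843 other protein-coding genes had a peak (9.58%). The members held 51 peaks. Of the 35 members, 23 had a single peak and 12 had 2 or more, which is 11.1% of all members, compared with 2.14% of the other genes. Among the highest scores were those of Hdac9, Arid4b, Kdm2a, Kmt2d and Chd4. No chance test was applied to these shares, since genes are not replicates, and transcript levels were not analysed here. Of 14 ESC marker genes, 11 had peaks (20 peaks in all), among them Pou5f1, Sox2, Nanog and Esrrb, while Lin28a, Tdgf1 and Utf1 had none. A peak does not measure transcript level, and markers of other cell types were not counted. The marker count is therefore no test of the cell type.

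**Figure D1:**
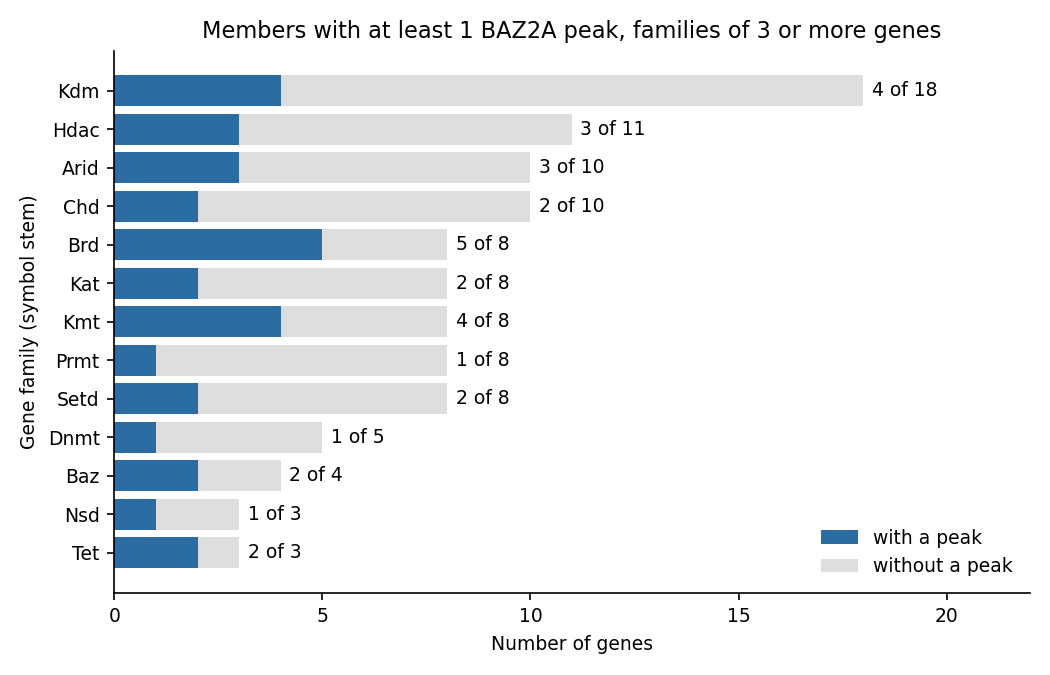
The horizontal axis gives the number of member genes in each family of 3 or more genes (vertical axis), split into genes with at least 1 peak (blue) and without a peak (grey). The Kdm family is the largest with 18 genes, of which 4 had a peak, and the Brd family had the most genes with a peak (5 of 8).

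The sequences of high-scored peaks outside the untranslated regions are given first, because they fall into unlike kinds. Each is the sense strand of the RNA written as DNA, from 5′ to 3′, in mm10 (GRCm38) coordinates counted from 1. The leading peaks lay in introns. Capitals mark 9 bases centred on the mode, the single position that the peak caller reports inside a peak.
Hdac9, chr12:34073752-34073820, minus strand: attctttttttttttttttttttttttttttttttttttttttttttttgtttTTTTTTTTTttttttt
Kdm2a, chr19:4378829-4378876, minus strand: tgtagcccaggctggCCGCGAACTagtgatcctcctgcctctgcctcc
The next peaks lay in coding sequence (CDS). Capitals mark the 6-mer CCTCCT in Kmt2d, and the 9 bases around the mode in Chd4.
Kmt2d, chr15:98863419-98863609, minus strand: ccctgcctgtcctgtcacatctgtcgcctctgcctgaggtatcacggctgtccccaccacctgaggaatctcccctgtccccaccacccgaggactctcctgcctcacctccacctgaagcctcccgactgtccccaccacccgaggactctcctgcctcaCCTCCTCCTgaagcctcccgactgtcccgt
Chd4, chr6:125129844-125129926, plus strand: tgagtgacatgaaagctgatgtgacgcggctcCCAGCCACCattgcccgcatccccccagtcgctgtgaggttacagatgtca
For peaks in untranslated regions, 30 bases around the mode are shown, with the mode in capitals.
Kdm5b (5'UTR), chr1:134560273-134560302, plus strand: cggagcggagctcgcTgccgcggttgcgga
Tet1 (3'UTR), chr10:62812321-62812350, minus strand: tgaatacttaactgTgattacattttgaga
Baz2a (3'UTR), chr10:128128159-128128188, plus strand: ccctgtgtgtgactgAgcccaggttagccc

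The 3 highest member scores lay in repeat-masked intronic sequence. The Hdac9 peak scored 49.8, rank 40 of the whole list. Hdac9 encodes a class IIa histone deacetylase, and the peak lay in intron 24 of 24, 4690 nt from the nearest splice site. It was almost pure U, with an unbroken run of 45 U and a GC content of 2.90%, all of it soft-masked as a repeat, and the 30 bases around its mode occurred at 2 places in the genome. The Arid4b peak scored 36.8, rank 55. Arid4b encodes a subunit of SIN3 corepressor complexes, and the peak lay in intron 2 of 23. All 76 nt of it lie within Gm26129, an annotated small nuclear RNA gene on the same strand inside that intron, with 100% identity. Reads of such a gene and of the intron around it cannot be told apart in the list. The Kdm2a peak scored 17.9, rank 177. Kdm2a encodes an H3K36 demethylase with a CpG-binding domain. Its peak in intron 2 of 20 was wholly masked and matched the annotated RNA Gm22662 in antisense orientation, with 87.8% identity over 49 aligned positions. These 3 peaks carried 30.9% of the summed score of all member peaks.

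Matches to annotated structural RNAs were found in 5 of the 51 member peaks (9.80%, interval 4.26 to 21%), compared with 10.1% of the peaks of other genes. Besides Arid4b and Kdm2a, they were the intronic peaks of Kat7 (score 6.57), Kat6b (4.31) and Brd3 (3.80). These are matches by sequence similarity. Only the Arid4b peak overlapped an annotated small RNA gene (1.96% of member peaks, against 2.72% in other genes). The Kat6b match was antisense with 84.1% identity. The Brd3 match had 74.4% identity, and the Kat7 match covered 33 aligned positions. Kat7 encodes the acetyltransferase HBO1, and its peak was a run of 36 A with few other bases. At least 50% of the bases were masked in 9 of 22 intronic member peaks (40.9%) and in 36.3% of the intronic peaks of other genes. Of the 51 member peaks, 48 had a mode window found once in the genome, and the exceptions were Hdac9, Arid4b and the higher-scored peak of Arid1a. No member peak shared its interval with another gene on the same strand, and none had a peak opposite to it.

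The members are longer than other genes. The median gene span, introns included, was 51.7 kb for members and 17.3 kb for other protein-coding genes, and the median of the longest coding transcript was 5.68 and 2.71 kb. Within each class of gene span the share of members with a peak was above that of other genes. It was 12.5% against 3.77% under 10 kb (1 of 8 members), 22.7% against 7.62% from 10 to 30 kb (5 of 22), 34.6% against 14.3% from 30 to 100 kb (18 of 52) and 42.3% against 23.2% from 100 kb on (11 of 26). The Wilson intervals of members and other genes overlapped in the shortest class only. These intervals treat genes as independent and are a description, not a test. By transcript length, the members were below the other genes under 2 kb (0 of 7 members, interval up to 35.4%, against 4.40%) and above them in the longer classes, with 17.9% (interval 7.88 to 35.6%) against 9.09% from 2 to 4 kb, 39.1% against 14.3% from 4 to 6 kb and 42.0% against 20.7% from 6 kb on. The intervals of both groups overlapped in the classes under 2 kb and from 2 to 4 kb. When the shares of other genes were weighted by the members' distribution over span classes, 14.3% of other genes had a peak, which corresponds to 15.5 of 108 genes. Weighting over transcript length gave 15.3%, and weighting over both together gave 16.6%. The share of members, 32.4% (interval from 24.3%), was above these values, as a description. The classes were broad, and the longest had no upper limit. The class of 6 kb or more held 50 of the 108 members. Length within classes was not matched, so the part of length in the difference was not settled. The other genes are all annotated protein-coding genes, whether or not they are expressed in ESCs. The paper reports that genes with BAZ2A sites had higher transcript levels than genes without. The part of transcript level in the difference was not tested. Of the 20 members with the longest coding transcripts (9.04 to 19.8 kb), 7 had a peak, and Kmt2a, Kmt2c, Ash1l, Kdm5a, Tet3 and Chd7 were among the 13 without.

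**Figure D2:**
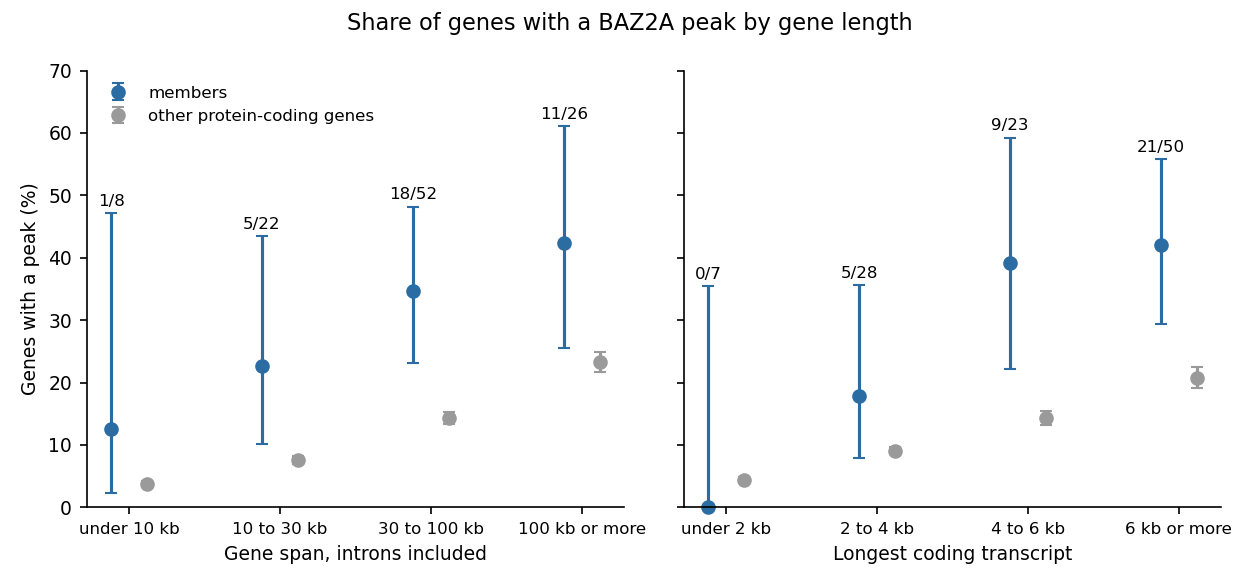
The vertical axis gives the percentage of genes with at least 1 peak, for members (blue) and other protein-coding genes (grey), by class of gene span (left) and of longest coding transcript (right). Bars are Wilson 95% intervals and the numbers are members with a peak over members in the class; the members lay above the other genes in each class except transcripts under 2 kb.

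Per length of gene, members had 5.97 peaks per Mb of span and other genes 2.69. The peaks in coding sequence and untranslated regions came to 39.2 per Mb of longest coding transcript in members and 19.8 in other genes, and intronic peaks to 2.57 and 1.30 per Mb of span. The exonic and the intronic density of members were thus both above those of other genes.

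Among the writers of histone methylation (Kmt, Setd, Ash and Nsd), 8 of 21 genes had 13 peaks. The Kmt2 genes encode the MLL group, known for methylation of H3K4, and peaks were found in Kmt2d (4 peaks) and Kmt2b (2 peaks) but not in Kmt2a, Kmt2c or Kmt2e. Kmt2d had the most peaks of any member and they were spread along the gene. The peak in CDS of exon 11 of 55 scored 14.8, the one in CDS of exon 32 scored 8.68, the one in the 5'UTR scored 4.60 and the one in the 3'UTR scored 3.02. Both CDS peaks were long (191 and 144 nt) and C-rich, with 47.6% and 46.5% C. The 2 peaks of Kmt2b scored 4.43 in CDS and 2.35 in an intron. Setd1b, which encodes another H3K4 methyltransferase, had a CDS peak of 172 nt in exon 6 of 17 with a score of 8.43. Nsd1, an H3K36 methyltransferase gene, had an intronic peak within the first 1 kb of the gene (score 7.12, GC 76.1%) and a 3'UTR peak (4.20). Single peaks were found in Kmt5a and Kmt5c, which encode H4K20 methyltransferases, in Setd2, which encodes the enzyme that trimethylates H3K36, and in Ash2l, a COMPASS core subunit gene. The protein arginine methyltransferases had 1 peak over 8 genes, in an intron of Prmt3.

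Of the 8 acetyltransferase genes of the Kat family, Kat7 (1 peak) and Kat6b (2 peaks) had peaks, and Kat2a, Kat2b, Kat5, Kat6a, Kat8 and Kat14 had none. All 3 peaks lay in introns or in exons of non-coding transcripts.

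Among the erasers, peaks were found in 4 of 18 demethylase genes and 3 of 11 deacetylase genes. The demethylase genes were Kdm2a and Kdm2b (1 peak each), whose products remove methyl groups from H3K36, and Kdm5b (2 peaks) and Kdm5c (1 peak), whose products act on H3K4. Kdm5b had peaks at both ends, with a score of 7.17 in the 5'UTR and 4.84 in the 3'UTR, whereas Kdm5a and the Y-linked Kdm5d had no peak. Kdm1a, Kdm3a, Kdm4a, Kdm6a and their relatives had none either. The deacetylase peaks all belonged to class IIa, the signal-responsive deacetylases that shuttle between nucleus and cytoplasm. Hdac4 (1 peak), Hdac5 (2 peaks) and Hdac9 (1 peak) had peaks and Hdac7 had none. The class I genes, Hdac1, Hdac2, Hdac3 and Hdac8, had no peak. Their median span was 27.0 kb, compared with 159 kb for class IIa, and the part of length in this split was not tested. Of other protein-coding genes 9.58% had a peak, so that no peak was the usual outcome for a gene. With 4 genes in each class, the split is a description of few genes. The Hdac9 peak was the masked run of U described above. The Hdac4 peak lay in intron 2 of 26 (score 6.84), with 56.2% of its bases masked. The Hdac5 peaks were 12 and 11 nt long with scores of 1.93 and 1.75, among the lowest of the members.

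For cytosine methylation, 3 of 8 genes had peaks. Tet1, whose product oxidises methylated cytosine in ESCs, had 3 peaks, and Tet2 had 1, while Tet3 had none. The Tet1 peaks were in the 3'UTR with a score of 7.11, in CDS of exon 2 with 6.00 and in the 3'UTR again with 3.01. The first of these was 170 nt long with a GC content of 31.2%, whereas that of the Tet1 CDS peak was 52.9%. The Tet2 peak lay in CDS of exon 3 (score 3.41). Among the DNA methyltransferase genes only Dnmt1, which encodes the maintenance enzyme, had a peak. It lay in intron 16 of 38, was 40 nt long and wholly repeat-masked, and scored 2.78. Dnmt3a, Dnmt3b, Dnmt3c and Dnmt3l had no peak, although Dnmt3a spans 108 kb.

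Among the readers, 7 of 12 genes had 9 peaks. Their bromodomain proteins bind acetylated histones. Brd2, whose product also binds transcription elongation factors, had a 5'UTR peak (score 5.49), and Brd3 had the intronic peak described above. Brd1 and Brd8 had 1 peak each. Of the Baz genes, Baz2a and Baz1b had 1 peak each. The Baz2a peak, in the RNA of the precipitated protein itself, lay in the 3'UTR in exon 30 of 30 (chr10:128128143-128128202, plus strand, 60 nt) with a score of 4.61, which was the median of the member peaks. The Baz1b peak was in intron 11 of 18 with a score of 3.75, and 86.7% of its bases were masked. Baz2b, the longest of the family with 310 kb, and Baz1a, 121 kb, had no peak.

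Of the 20 Chd and Arid genes, 5 had 8 peaks. The Chd genes encode ATP-dependent remodellers, and the Arid genes encode DNA-binding proteins, some of which are subunits of the BAF remodeller or of SIN3 corepressor complexes. Chd4, the ATPase of the NuRD complex, had a CDS peak with a score of 8.55 and a 3'UTR peak with 4.33, both in exon 39 of 39. Chd9 had a 5'UTR peak (score 5.20), and the other Chd genes, Chd1 and Chd7 included, had none. The BAF subunit genes Arid1a and Arid1b had 2 peaks each. Those of Arid1a were intronic (6.27 and 3.08) and those of Arid1b lay in CDS, in exon 1 and exon 17 of 20 (2.87 and 2.50). Arid4b had 1 peak, and Arid2 was among the 7 Arid genes without. The corepressor gene Ncor1 had 1 peak, in an intron (score 3.86). Among the 13 Smarc genes left aside by the rule, only Smarcb1 had a peak (intron, score 2.95), and of Sin3a and Sin3b only Sin3b did (CDS, 2.87). Smarca5, the gene of the ATPase partner of BAZ2A, had no peak, nor had Smarca4. The 15 genes thus had a share of 13.3% (interval 3.74 to 37.9%). The 9.58% of other protein-coding genes lay within that interval. At such a share no peak in a single gene, Smarca5 included, is the usual outcome. Counting them as members gave 37 of 123 genes, or 30.1%.

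**Figure D3:**
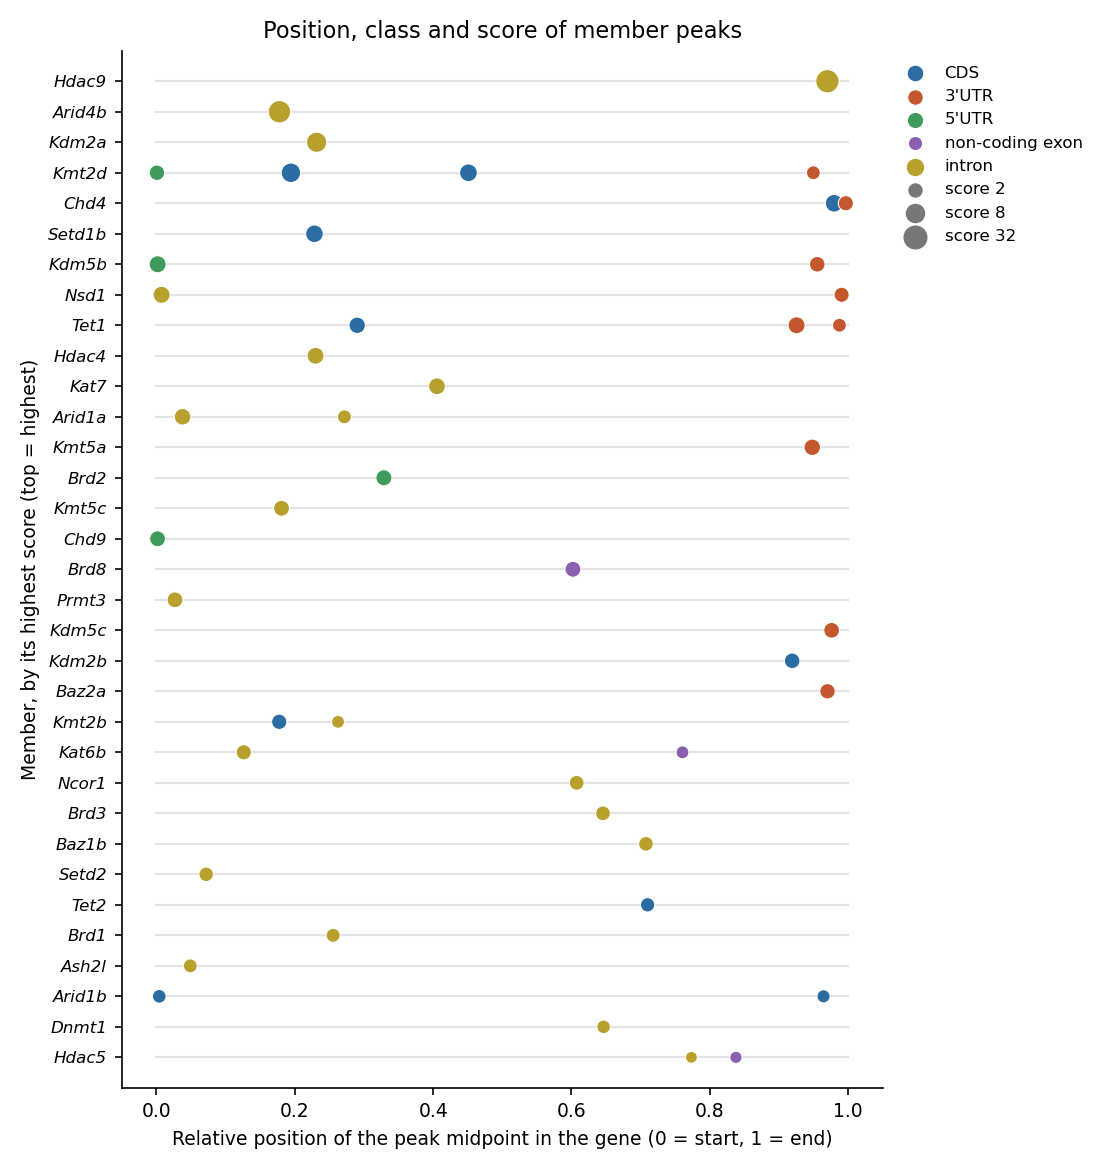
Each row is a member with a peak named in the text, ordered by its highest score, and the horizontal axis is the relative position of the peak midpoint from the start (0) to the end (1) of the gene. Colour gives the annotation class and point area rises with the log of the score; the peaks of Chd4 lie at the end of the gene, and those of Kdm5b, Kmt2d and Nsd1 reach both ends.

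By annotation, the member peaks were spread much like those of other genes. Introns held 22 of 51 member peaks (43.1%, interval 30.5 to 56.7%) and 48.3% of the peaks of other genes. CDS held 12 (23.5% against 24.7%), the 3'UTR 10 (19.6% against 17.0%), the 5'UTR 4 (7.84% against 7.32%) and exons of non-coding transcripts 3 (5.88% against 2.69%). Each of the 5 values of other genes lay within the interval of the members. With 1 peak per gene, the one with the highest score, the 3'UTR share of members was 11.4% against 17.1%, on the other side of the other genes. The median relative position was 0.608 (interval 0.263 to 0.760) in members and 0.547 in other genes, but it did not keep its side: it was 0.329 against 0.525 with 1 peak per gene and 0.310 against 0.535 among the upper 50% of peaks by score. The last 10% of the gene held 16 member peaks (31.4%, interval 20.3 to 45.0%) against 20.3% in other genes, and the first 10% held 17.6% against 17.7%. The last exon held 11 of 26 member peaks in exons of the longest coding transcript (42.3%) and 41.2% of those of other genes. The median distance to a splice site was 642 nt (interval 335 to 881), compared with 466 nt, and 6 of 51 member peaks (11.8%) lay within 50 nt of one, against 17.1%.

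**Figure D4:**
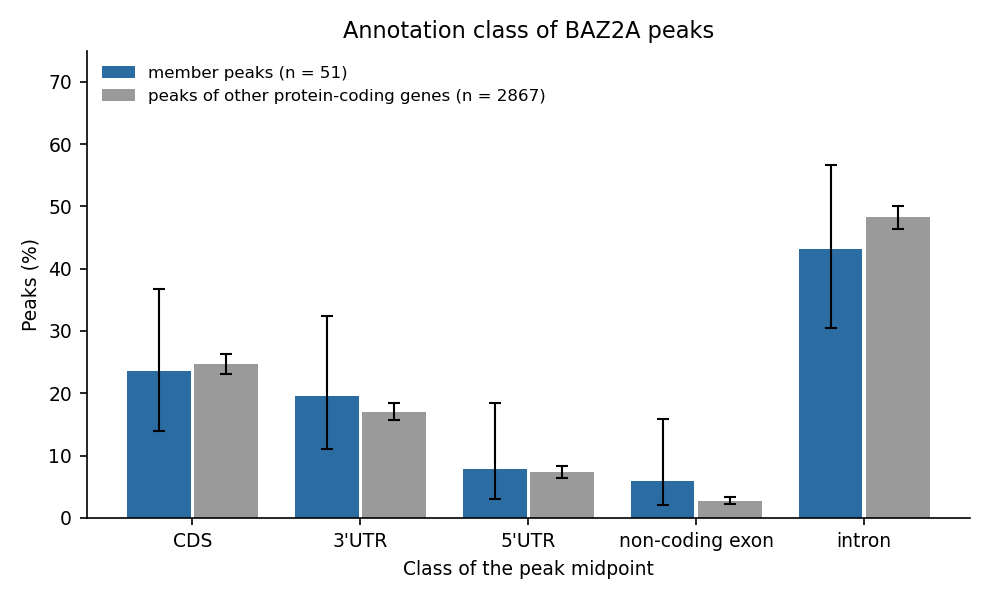
The vertical axis is the percentage of peaks in each annotation class (horizontal axis), for 51 member peaks (blue) and 2867 peaks of other protein-coding genes (grey), with Wilson 95% intervals as bars. The intervals of both groups overlap in each class.

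The score of member peaks had a median of 4.61 (interval of the median 3.86 to 5.20, quartiles 3.10 and 6.42), and that of other genes a median of 4.20. The median of other genes lay inside the members' interval. By class, the medians of members and other genes were 5.41 and 4.63 in CDS, 4.47 and 4.60 in the 3'UTR and 4.08 and 3.75 in introns. In the upper 10% of the list stood 4 member peaks (7.84%), the 3 intronic peaks of Hdac9, Arid4b and Kdm2a and the CDS peak of Kmt2d, compared with 9.14% of the peaks of other genes. The lowest member score was 1.49. Member peaks had a median length of 66.0 nt (interval 60.0 to 77.0), compared with 58.0 nt. In CDS the median was 85.5 nt (interval 66.0 to 172) over 12 peaks and 63.0 nt in other genes, so that the lower end of the members' interval was above the other median. Score and length went together in members (Spearman's rho 0.70 over 51 peaks) and in other genes (0.63 over 2867), as a description, since the peak caller gives both from the same reads.

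The base composition differed by class. Member peaks in CDS had a median C content of 40.4% (interval 31.3 to 47.6%) and those of other genes 31.5%. In introns the medians were 26.0% (interval 20.0 to 31.6%) and 26.3%, and in the 3'UTR they were 24.9% (interval 12.9 to 37.5%) and 26.8%. The 6-mer CCTCCT was searched on the sense strand of each peak with the letters of the genome. Over all classes it was present in 8 of 51 member peaks (15.7%, interval 8.17 to 28.0%) and in 258 of 2867 peaks of other genes (9%), a value within the members' interval. By class, it was present in 5 of 12 member peaks in CDS (41.7%, interval 19.3 to 68.0%) and in 9.04% of the 708 CDS peaks of other genes. They included the 2 CDS peaks of Kmt2d and those of Setd1b and Tet1. Longer peaks hold more 6-mers, and 8 of the 12 were at least 80 nt long. Among CDS peaks of that length the motif was in 5 of 8 member peaks (62.5%, interval 30.6 to 86.3%) and in 16.8% of 238 peaks of other genes. Among shorter CDS peaks it was in 0 of 4 member peaks (interval up to 49.0%) and in 5.11% of 470 peaks of other genes. In introns it was in 3 of 22 member peaks, those of Kdm2a, Kmt5c and Arid1a, and in 8.24% of other peaks. None of the 10 member peaks in the 3'UTR and none of the 4 in the 5'UTR held it. The reverse complement, AGGAGG, was in 2 of 51 member peaks (3.92%) and in 4.53% of the others. The motif was noted after the peaks had been seen, and these counts are a description.

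**Figure D5:**
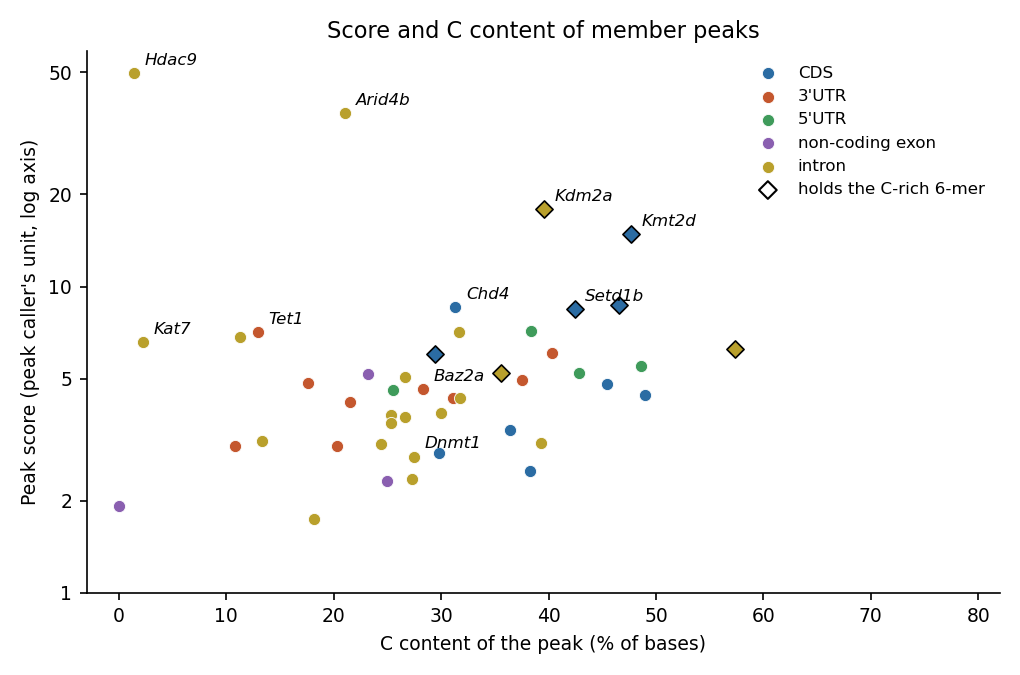
The horizontal axis is the C content of a peak of the named members in percent of its bases and the vertical axis its score on a log scale, with the annotation class as colour and diamonds for peaks that hold the C-rich 6-mer. Hdac9 (49.8) and Arid4b (36.8) stand highest at low and middle C content, and the CDS peaks of Kmt2d and Setd1b stand at C contents above 40%.

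Other chromatin genes outside the stems were counted from 8 lists with 170 symbols, of which 169 were in the annotation. At least 1 peak was found in 47 of them (27.8%, interval 21.6 to 35.0%), with 56 peaks. Among all protein-coding genes other than members the share was 9.58%. Their median span was 31.9 kb and their median transcript 3.93 kb, both shorter than those of the members. Both were longer than those of other protein-coding genes (17.3 and 2.71 kb). No share weighted by length was computed for these lists, so the part of length in their counts was not tested. The Polycomb list had 11 of 32 genes with a peak. It held the highest score of the lists, 1000, in an intron of Jarid2, and a CDS peak of Epop with 24.6, both accessory subunits of PRC2. Masking, copies in the genome and matches to structural RNAs are not given for the list peaks, that of Jarid2 included. Suz12, a core subunit of the same complex, had 2 peaks. The NuRD list, which leaves out members, had 8 of 11 genes with 1 peak each, among them Mbd3, Mta1, Gatad2a and Rbbp4. Another was Sall4, which is also counted among the ESC markers. Of the members that encode NuRD subunits, Chd4 had peaks, whereas Hdac1, Hdac2, Chd3 and Chd5 had none. The heterochromatin list had 7 of 25, led by Trim28 (also known as KAP1), with 31.2 in the 3'UTR and 13.5 in CDS. The list of ISWI partners and histone chaperones had 6 of 20, including 3 peaks in Npm1. The INO80, SRCAP and TIP60 list had 6 of 25, with 2 peaks in Srcap. For acetyltransferase genes outside the stems the count was 5 of 29, with Crebbp (CDS, 8.27) and Ep300 (5'UTR, 7.60). The lists of BAF and COMPASS subunits outside the stems had 2 of 15 and 2 of 12, and those shares (13.3% and 16.7%) were the lowest of the 8.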

How the data were processed

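Crosslinked and background libraries were taken from the sample titles. Per the study's methods and the submitters' processing notes, the authors trimmed reads with Flexbar, mapped them to mm10 with STAR 2.6, removed duplicates with UMI-tools 0.5.1 and called peaks with omniCLIP. The deposited score is the peak caller's own, in a unit that is not stated, and it was compared within the list only. No count per library was used here, so depth and replicate error are unknown from the list.

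Peaks were joined by gene identifier to GENCODE M21 (GRCm38) and took the class of their midpoint (CDS, then 3'UTR, 5'UTR, exon of a non-coding transcript, intron). All 21951 protein-coding genes were kept. Shares carry Wilson 95% intervals, and medians carry binomial order-statistic 95% intervals. Sequences came from the RefSeq GRCm38.p6 genome. Structural RNAs (3910 annotated transcripts) were searched with blastn 2.17.0, keeping alignments that covered 50% or more of a peak with an e-value of 1e-05 or less. Classes and intervals were tested on simulated data. Intervals came from scipy 1.17.1 in Python 3.11.15, and samtools 1.23.1 indexed the genome.

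Members with a peak are named, except for some items that are not reported here. The values of a peak are given for the 12 members with the highest score, members with 3 or more peaks, the Baz genes, Dnmt1, Dnmt3a, Dnmt3b, Hdac1, Hdac2 and Smarca5. Further values were chosen after they had been seen. The members and gene lists were chosen with earlier results of these data known.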

Additional observations from a re-analysis of the deposited data

How the results depend on the processing

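Of 71 values under alternatives for 9 results, 69 lay within the 95% interval of the reported value. Most alternatives reuse most of the same peaks, some leave a value unchanged, and the intervals are wide. Values inside them were therefore likely beforehand, and the count is no test of stability. Among the upper 50% of peaks by score, the share of members with a peak was 23.1% (other genes 4.94%), and the median length of member peaks was 80 nt (other genes 81.0 nt). The share of members was above that of other genes in all 8 settings, at 23.1 to 32.4% against 4.94 to 9.58%, including without peaks of 18 nt or shorter and without the Brd family (30%). The alternatives without mode windows that recur in the genome (30.6%) and without structural RNA matches (28.7%) were chosen after seeing the data. Leaving out each family in turn gave 30 to 34.4%. The median score of members was above that of other genes in all 7 settings, and the GC content below it in 7 of 8. Relative position and the 3'UTR share did not keep their side: the position of members was above that of other genes in 6 of 9 settings and below in 3 (0.310 to 0.630 over all), and the 3'UTR share was above in 9 of 10 (11.4% with 1 peak per gene). With 1 peak per gene the CDS share (22.9% against 21.5%) and the intron share (51.4% against 50.4%) changed side too. Among the upper 50% the median GC content of members was 58.1% against 57.2%. No paired analysis was possible because the list pools all libraries, and for the same reason no replicate could be left out. With 51 peaks, class shares are known loosely, as for introns at 30.5 to 56.7%.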
